A study of Mus musculus with 17 samples.

Results

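The 10 genes described here are a compact set of TGF-beta signalling components, chosen by name from 47069 genes in the deposited tables of mouse fetal liver cells: the ligand gene Tgfb1, the receptor genes Tgfbr1 and Tgfbr2, the SMAD genes Smad2, Smad3, Smad4, Smad6 and Smad7, and the repressor genes Ski and Skil. All 10 were found in each of the 3 tables and all 10 passed the filter on low counts in every comparison. RNA was sequenced in 17 libraries of 6 groups. The first table holds LUC and Arid3a, the second sh-ctrl, shArid3a and miR-125b, and the third WT.

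Cells came from the liver of embryos at E12.5 to 13.5. The strain, a B6J.129(Cg) line with the code Fezh/J, carries (CAG-cas9*,-EGFP) at Gt(ROSA)26Sor as the allele tm1.1, so every group has Cas9 and EGFP driven by the CAG promoter. In 14 libraries the first transgene was sgGata1, a guide RNA against Gata1, and the submitters call these cells Gata1s, after the short form of the megakaryocyte and erythroid transcription factor GATA1. Their second transgene gave 5 groups. LUC, a luciferase control (n = 3), and Arid3a (n = 3) had doxycycline at 1 µg/mL for 48 h. The groups sh-ctrl, a control hairpin (n = 3), shArid3a, a hairpin against Arid3a (n = 2, numbered 1 and 3), and miR-125b, a microRNA (n = 3), had doxycycline for 10 days. The WT group (n = 3) carried sgLuc and shLuc, against luciferase, and its treatment is given as a dash. The labels do not say whether libraries of a group came from separate embryos or cultures, so p-values measure only the spread between libraries, which may be technical.

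TGF-beta binds a receptor complex in which the type II receptor (Tgfbr2) activates the type I receptor (Tgfbr1), and the type I receptor phosphorylates SMAD2 and SMAD3. These join SMAD4, enter the nucleus and regulate target genes. SMAD6 and SMAD7 oppose the pathway at the receptors, and SKI and SnoN, the product of Skil, bind SMADs in the nucleus and recruit corepressors. Megakaryocytes store TGF-beta1 in their granules, and TGF-beta restrains the growth of blood progenitors.

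Expression of miR-125b went with lower Skil, Tgfbr1 and Smad3. Against sh-ctrl, Skil fell by 1.47 on the log2 scale (SE 0.21, edgeR adjusted p = 0.00518), Tgfbr1 fell by 1.00 (SE 0.17, edgeR adjusted p = 0.00648) and Smad3 fell by 0.95 (SE 0.23, edgeR adjusted p = 0.0187). No member was called higher. These 3 of 10 members called lower compare with 12.2% of the 14004 genes tested called lower in that comparison, and 24.4% called in either direction. Without sh-ctrl replicate 3 or without miR-125b replicate 2, Smad3 was not called (edgeR adjusted p = 0.0767 and 0.0517). In bulk RNA, fewer cells of a type and less RNA per cell cannot be told apart.

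The microRNA and its matches to the members are shown because a match to its seed is the sequence feature through which a microRNA recognises a transcript. RefSeq gives the mature miR-125b-5p, encoded by Mir125b-1 and Mir125b-2, with the seed (bases 2 to 8) in capitals:
miR-125b-5p: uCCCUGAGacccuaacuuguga
Matches were searched on the transcript strand of 1 protein-coding transcript per gene (GENCODE M21, GRCm38), as the 8mer CTCAGGGA, the 7mer-m8 CTCAGGG and the 7mer-A1 TCAGGGA, and a match inside an 8mer was counted only as an 8mer. Of the members, Tgfbr1 and Smad7 each had 1 match, a 7mer-A1, and the other 8, Skil and Smad3 among them, had none in the UTR searched. In Tgfbr1 it starts at base 2251 of a 3′ UTR of 4154 bases. The stretch printed, which ends with the match, lies at chr4:47413013-47413034 (plus strand, match in capitals):
Tgfbr1: atgtgctttgatgaaTCAGGGA
For comparison, the 3′ UTR of Arid3a (3082 bases), the gene named in the study's title as a target of this microRNA, had 2 8mers, 4 7mer-m8 and 1 7mer-A1 matches. The stretches printed, each ending with an 8mer, lie at chr10:79952873-79952894 and chr10:79953806-79953827 (plus strand):
Arid3a first 8mer: gtggcctcctgtgcCTCAGGGA
Arid3a second 8mer: ccatgggtaactggCTCAGGGA
Among 11500 genes tested with a 3′ UTR (median length 1133 bases), 5.53% had an 8mer and 22.8% had any of the 3 matches. A match is a run of letters and not a measured site.

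Promoters of the members were searched for letters that SMAD complexes bind, because SMAD7, SMAD6 and SnoN are known to be induced by the pathway they oppose. RefSeq's table (GRCm38.p6) held 7 entries for 6 members, Tgfb1, Tgfbr1 (with 2 starts), Tgfbr2, Smad3, Smad6 and Ski, each with 250 bases before to 50 bases after the start. Smad7, Skil, Smad2 and Smad4 had no entry there, so the promoters of Smad7 and Skil could not be searched. The palindrome GTCTAGAC, read on both strands, was in 1 of the 7 entries, that of Smad6, and in 70 of all 32851 entries (0.213%). It begins at position -4 from the Smad6 start, and the 60 bases around it, chr9:64022030-64022089 (minus strand), are shown with the palindrome in capitals:
Smad6: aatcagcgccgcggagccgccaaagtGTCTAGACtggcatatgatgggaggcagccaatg
The shorter letters CAGAC, which do not occur within the palindrome, were in the second Tgfbr1 entry and in Tgfbr2, against 49.6% of all entries. GATAA, the core that GATA factors read, was in none of the 7 entries, against 25.4% of all.

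Library totals ranged from 16362439 to 40859301 counts, and the precision of each value is the spread between libraries. Arid3a itself checked the labels. It was at 62.1 ± 2.68 CPM (counts scaled to a common library size, SD, n = 3) in LUC and 65.7 ± 11.0 (n = 3) in the libraries labelled Arid3a. The log2 change was 0.08 (edgeR adjusted p = 0.737), so as a group the counts of this gene did not show that transgene. Among the libraries labelled Arid3a, replicate 1 (53.3 CPM) lay below every LUC library (59.3 to 64.7). Replicates 2 and 3 (69.2 and 74.5 CPM) lay above every LUC library. The hairpin and the microRNA both went with lower Arid3a, with log2 changes of -1.43 (edgeR adjusted p = 0.0368) and -2.56 (edgeR adjusted p = 0.000282). Megakaryocyte and platelet markers were abundant in the Gata1s cells, with all 12 detected in every group and summed levels of 2897 to 5324 CPM across libraries, against 1271 to 1480 in WT. Hepatoblast markers summed to at most 6.46 CPM in the Gata1s libraries, with Hnf4a at 0 in all 5 groups. The endothelial marker Cdh5 was also at 0 in them. Nearly all of the endothelial sum came from Pecam1 (137 CPM in LUC), which megakaryocytes also express.

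Levels are in CPM scaled jointly over all 17 libraries. Per kilobase of gene length, Tgfb1 had the highest level of the members in every group, at 137 ± 7.89 CPM per kilobase in LUC, 172 ± 23.8 in sh-ctrl and 66.6 ± 2.74 in WT (n = 3 each). Ski came next in the controls, at 13.1 ± 0.306 in LUC and 13.9 ± 2.07 in sh-ctrl. Smad6 was lowest in every group, at 0.746 ± 0.140 in LUC, 1.19 ± 0.353 in sh-ctrl and 1.85 ± 0.163 in WT. In the miR-125b group Skil ranked below Smad7, at 1.46 ± 0.222 against 1.60 ± 0.430 CPM per kilobase, a gap smaller than the spread.

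**Figure D1:**
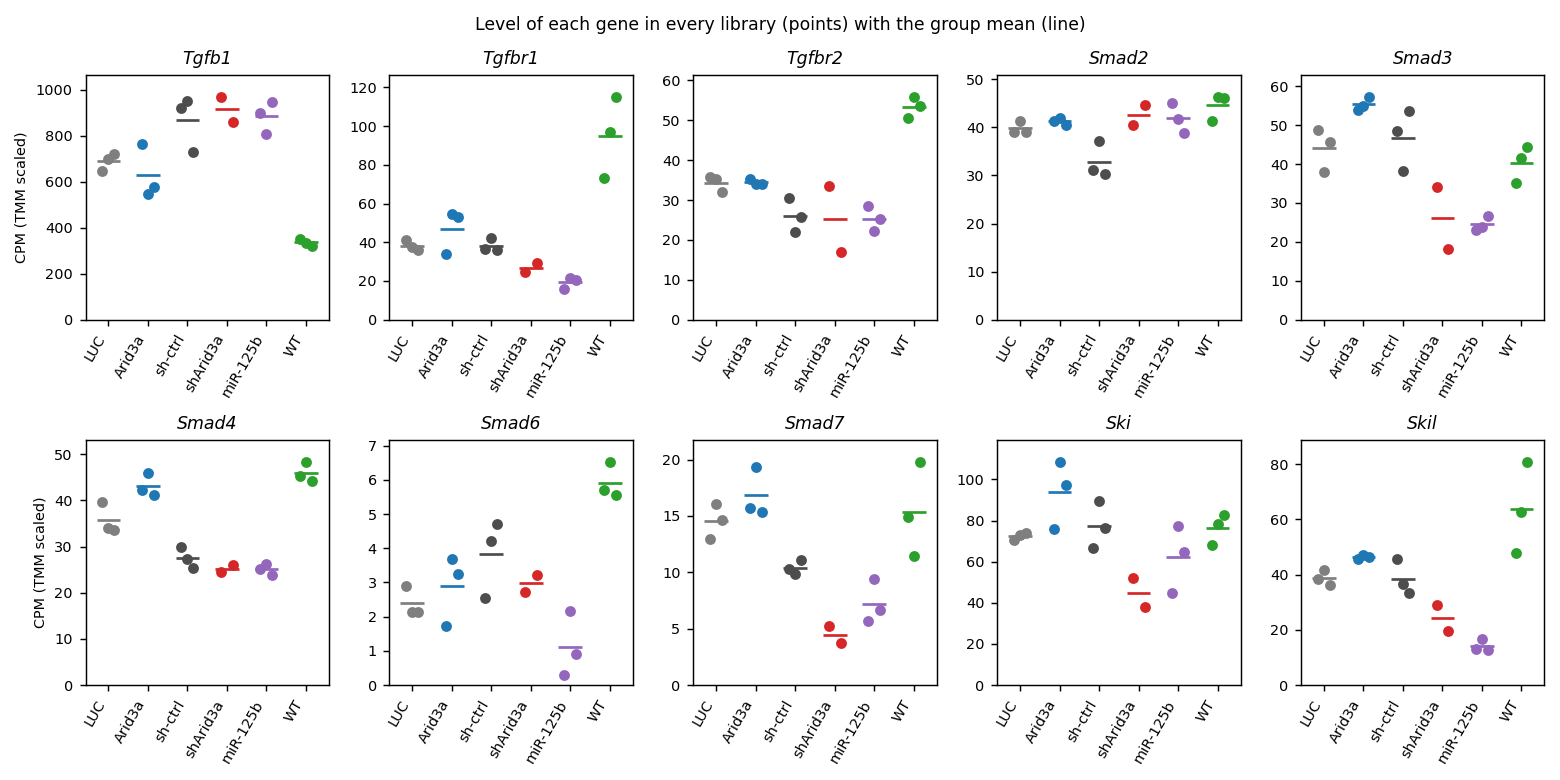
Level of each gene (y axis, TMM-scaled CPM, starting at 0) in every library of the 6 groups (x axis), with points for libraries and a line for the group mean. Skil and Tgfbr1 are lowest in miR-125b and highest in WT, and Tgfb1 is lowest in WT, at 323 to 350.2 CPM.

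Tgfb1 (ENSMUSG00000002603, chr7:25687002-25705077, plus strand), which encodes the ligand, passed the test with none of the transgenes. Its level was 645, 699 and 722 CPM in LUC and 765, 548 and 578 in the libraries labelled Arid3a. In the second table it was 921, 951 and 730.1 CPM in sh-ctrl, 969 and 862 in shArid3a, and 900.2, 806 and 945 in miR-125b. Groups within a table overlapped, and the log2 changes were -0.13 (SE 0.13), 0.06 (SE 0.17) and 0.01 (SE 0.15), none called. WT stood apart, with 350.2, 335 and 323 CPM, less than any Gata1s library.

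Tgfbr1 (ENSMUSG00000007613, chr4:47353222-47414931, plus strand), the type I receptor kinase, had its mean levels in the order WT, Arid3a, sh-ctrl, LUC, shArid3a, miR-125b, of which Arid3a, sh-ctrl and LUC overlapped. Its level was 36.6, 42.2 and 36.0 CPM in sh-ctrl, 24.6 and 29.1 in shArid3a, and 16.1, 21.5 and 20.5 in miR-125b. These 3 groups did not overlap, and the microRNA group was lowest. The fall with miR-125b was called in 15 of 15 alternative fits, with log2 changes from -1.18 to -0.88. For shArid3a the change was -0.53 (SE 0.19, edgeR adjusted p = 0.128), not called. LUC libraries had 41.1, 37.7 and 35.9 CPM against 33.8, 54.4 and 52.9 in those labelled Arid3a. Arid3a replicate 1 lay below LUC and the other two above it, and the change of 0.30 (SE 0.17) was not called.

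Tgfbr2 (ENSMUSG00000032440, chr9:116084293-116175360, minus strand), the ligand-binding type II receptor, did not pass the test in any comparison. It was at 30.4, 21.9 and 25.7 CPM in sh-ctrl, 33.5 and 16.9 in shArid3a, and 28.5, 22.2 and 25.2 in miR-125b. The shArid3a libraries were the highest and the lowest of these 8. LUC had 35.8, 35.2 and 32.0 CPM and the libraries labelled Arid3a 35.3, 34.01 and 34.03. Log2 changes lay between -0.06 and 0.00 in the 4 comparisons within tables, with SEs from 0.08 to 0.28.

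Smad3 (ENSMUSG00000032402, chr9:63646767-63757994, minus strand) and Smad2 (ENSMUSG00000024563) encode the receptor-phosphorylated SMADs, and their values lay on opposite sides of sh-ctrl in both treated groups. Smad3 was at 48.4, 38.3 and 53.7 CPM in sh-ctrl, 34.1 and 18.2 in shArid3a, and 23.2, 23.9 and 26.6 in miR-125b. Every treated library was below every control, but the shArid3a change of -0.85 (SE 0.26, edgeR adjusted p = 0.110) was not called. Smad2 was at 31.1, 37.2 and 30.3 CPM in sh-ctrl, 40.6 and 44.7 in shArid3a, and 45.1, 41.7 and 38.8 in miR-125b. Both treated groups were above every control and overlapped each other, and neither change from sh-ctrl was called, at 0.35 (SE 0.16, edgeR adjusted p = 0.189) and 0.33 (SE 0.14, edgeR adjusted p = 0.110). By library totals alone, both treated groups overlapped sh-ctrl in Smad2. It was then at 29.9, 36.4 and 30.9 CPM in sh-ctrl, 36.3 and 36.1 in shArid3a, and 36.0, 36.9 and 33.9 in miR-125b.

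In the first table, Smad3 was at 48.8, 37.9 and 45.7 CPM in LUC and 54.0, 54.9 and 57.3 in the libraries labelled Arid3a. All 3 of the latter were above all LUC libraries, with a change of 0.33 (SE 0.10, edgeR adjusted p = 0.135), not called. Smad2 had 39.0, 41.4 and 39.0 CPM in LUC and 41.4, 41.9 and 40.5 in the libraries labelled Arid3a, which overlapped. The WT libraries had 35.1, 41.7 and 44.3 CPM of Smad3 and 41.3, 46.4 and 46.2 of Smad2.

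Smad4 (ENSMUSG00000024515), the shared partner of the phosphorylated SMADs, was nearly level in scaled CPM across the hairpin and microRNA groups. It had 29.8, 27.4 and 25.3 CPM in sh-ctrl, 24.5 and 26.0 in shArid3a, and 25.1, 26.3 and 23.9 in miR-125b. By library totals alone, every treated library was below every control. It was then at 28.7, 26.8 and 25.8 CPM in sh-ctrl, 21.9 and 21.0 in shArid3a, and 20.0, 23.2 and 20.9 in miR-125b. No alternative fit called Smad4 in either comparison with sh-ctrl. In LUC it was at 39.6, 34.1 and 33.6 CPM and in the libraries labelled Arid3a at 42.3, 46.0 and 41.1, which did not overlap. That change of 0.27 (SE 0.09, edgeR adjusted p = 0.156) was not called. A processed pseudogene on the other strand overlaps Smad4 in the annotation, and the use of strand in counting is not given in the sources used here.

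The inhibitory SMADs differed from each other in the second table. Smad7 (ENSMUSG00000025880), which brings ubiquitin ligases to the receptors, was at 10.3, 9.81 and 11.1 CPM in sh-ctrl, 5.24 and 3.68 in shArid3a, and 5.64, 9.39 and 6.63 in miR-125b. Both treated groups were below every control, and shArid3a was the lower. The changes were -1.24 (SE 0.31, edgeR adjusted p = 0.101) for shArid3a and -0.54 (SE 0.27, edgeR adjusted p = 0.155) for miR-125b, neither called. In LUC Smad7 was at 12.9, 16.1 and 14.7 CPM and in the libraries labelled Arid3a at 15.7, 19.4 and 15.4.

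Smad6 (ENSMUSG00000036867, chr9:63953076-64022059, minus strand), best known for restraining BMP signals, was at 2.55, 4.22 and 4.71 CPM in sh-ctrl, 2.73 and 3.22 in shArid3a, and 0.286, 2.17 and 0.895 in miR-125b. The miR-125b libraries were below all others of the table. Their change of -1.79 (SE 0.59, edgeR adjusted p = 0.0510) missed the threshold narrowly, and 8 of the 14 alternative fits that tested Smad6 called it, with adjusted p-values from 0.00585 to 0.145 over all 14. With the replicate number as a block, which treats same-numbered libraries as pairs, it was -2.06 (edgeR adjusted p = 0.0145), and 4 members were then called. LUC had 2.91, 2.12 and 2.14 CPM and the libraries labelled Arid3a 1.74, 3.70 and 3.24, so these overlapped.

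Skil (ENSMUSG00000027660, chr3:31095058-31122577, plus strand) had the smallest p of the members with miR-125b. Its level was 45.7, 36.8 and 33.3 CPM in sh-ctrl, 29.1 and 19.4 in shArid3a, and 13.1, 16.6 and 12.7 in miR-125b. The 3 groups did not overlap, in that order. The fall with miR-125b was called in 15 of 15 alternative fits, with log2 changes from -1.65 to -1.34. The shArid3a change was -0.69 (SE 0.24, edgeR adjusted p = 0.127), not called. In LUC Skil was at 38.2, 41.7 and 36.2 CPM and in the libraries labelled Arid3a at 45.7, 47.1 and 46.3, all above LUC, with a change of 0.26 (SE 0.08, edgeR adjusted p = 0.121).

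Ski (ENSMUSG00000029050, chr4:155154075-155222592, minus strand), the paralogue of Skil, was at 66.6, 89.5 and 76.3 CPM in sh-ctrl, 51.9 and 38.0 in shArid3a, and 44.8, 77.5 and 64.8 in miR-125b. The hairpin libraries were below all controls and the microRNA libraries overlapped them. Its changes were -0.80 (SE 0.24, edgeR adjusted p = 0.109) and -0.33 (SE 0.21, edgeR adjusted p = 0.272), neither called. LUC had 70.8, 73.0 and 74.1 CPM and the libraries labelled Arid3a 76.1, 108 and 97.4, with a change of 0.37 (SE 0.12, edgeR adjusted p = 0.143).

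**Figure D2:**
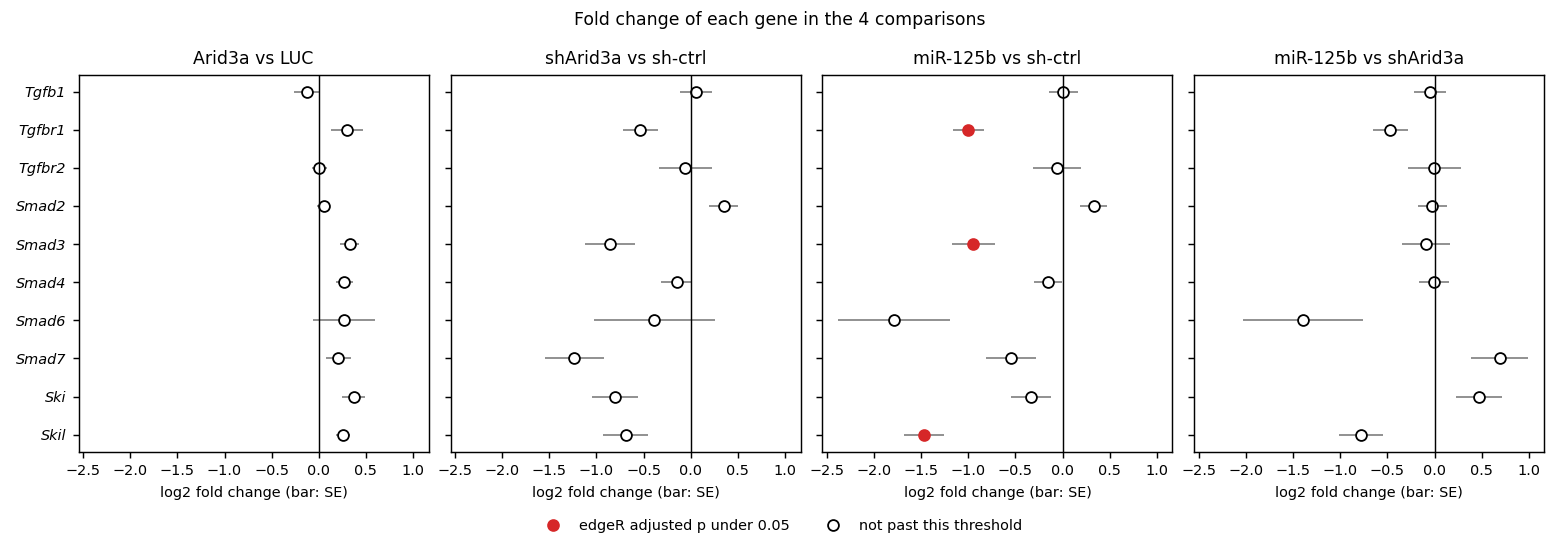
Log2 fold change (x axis) of the 10 genes (y axis) in the 4 comparisons within tables, with bars for 1 SE. Filled points passed an edgeR adjusted p under 0.05; these are Skil, Tgfbr1 and Smad3 in miR-125b against sh-ctrl.

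Counted together, most members had a positive change in Arid3a against LUC and a negative one in both comparisons with sh-ctrl. Smad2 was positive in all of them, Tgfb1 had the reverse signs and Tgfbr2 barely changed. In the libraries labelled Arid3a, 9 of 10 had a positive change against LUC, with a median of 0.27 against 0.01 over all 13495 genes tested. None was called, as was no gene in all (0%). At an unadjusted p under 0.05, 4 were higher, Smad3, Smad4, Ski and Skil, and 0 lower, against 21.4% of all genes in either direction. The same 4 did not overlap LUC, against 27.6% of genes that did not overlap. Arid3a replicate 1 decided the calls: without it 5 members were called by edgeR, Tgfb1 lower (-0.29) and Tgfbr1 (0.49), Smad3 (0.35), Ski (0.50) and Skil (0.27) higher. In that fit 3198 of the 13789 genes tested were called, so calls were common among all genes. Arid3a replicate 1 held mast cell and basophil markers at a summed 164 CPM, against 2.25 and 41.9 in replicates 2 and 3. Its erythroid markers were at 121 CPM against 292 and 254. Megakaryocyte and platelet markers were at 4475 CPM in it, against 2897 and 3052 in replicates 2 and 3 and 2942 to 3367 in LUC. LUC replicate 3 also stood apart, with granulocyte and monocyte markers at a summed 126 CPM against 5.25 and 5.98 in the other LUC libraries, and 0 members were called without it. The part of these cells in the result was not tested. DESeq2 called 2 members, Smad3 and Ski, each with an adjusted p = 0.0461, where 1342 of 13495 genes were called.

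With shArid3a, 8 of 10 members had a negative change, and the median was -0.46 against -0.02 over all genes tested. No member was called by edgeR, and 0.0857% of genes were. At an unadjusted p under 0.05, Smad2 was higher and 5 members, Tgfbr1, Smad3, Smad7, Ski and Skil, were lower, against 25.8% of genes in either direction. Those 6 were also the members that did not overlap sh-ctrl, against 44.2% of genes. DESeq2 called the 5 lower members, with adjusted p-values from 0.00350 for Smad7 to 0.04999 for Tgfbr1. It called 1600 of 14004 genes in all, against 12 by edgeR. Without a filter on low counts edgeR called 3, Smad3, Smad7 and Ski (adjusted p = 0.0141, 0.0316 and 0.00792). No more genes in all were called there than with DESeq2. Within the group, replicate 3 was below replicate 1 in Smad3 (18.2 against 34.1 CPM) and in Tgfbr2 (16.9 against 33.5). Mast cell markers also separated the 2 libraries, at a summed 12.9 CPM in replicate 1 and 102 in replicate 3, and their part was not tested.

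With miR-125b, 8 of 10 members had a negative change and the median was -0.44 against -0.03 over all genes tested. Smad2 lay above sh-ctrl without overlap and Tgfbr1, Smad3, Smad6, Smad7 and Skil below it, against 45.2% of genes that did not overlap. Erythroid markers were lower in these libraries, at a summed 195 to 238 CPM against 357 to 648 in sh-ctrl, with 9 of 10 listed markers detected and Slc4a1 at 0 in both. Stromal markers were at 50.8 to 140.0 CPM against 34.05 to 70.3. Pdgfrb gave most of the level of that sum (60.4 against 42.7 CPM on average), and Col3a1, Dcn and Lum were at 0 in both groups. The larger part of the average difference in the sum came from the other detected stromal markers and not from Pdgfrb. The median sum was 104 CPM in miR-125b and 42.6 in sh-ctrl, and the groups overlapped. Hepatoblast markers were at 4.43 to 6.46 CPM against 0.831 to 1.42 in sh-ctrl, without overlap, with 3 of 8 detected in miR-125b. Afp gave most of it (4.16 against 0.725 CPM on average), and Alb, Ttr, Serpina1a, Dlk1 and Hnf4a were at 0 in miR-125b. Mast cell markers reached 429 CPM in miR-125b replicate 1 and were at 38.9 and 33.6 in the other two. The part of other cells in the members' changes was not tested.

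Set directly against shArid3a, miR-125b gave no called member, where 1.35% of genes were called. At an unadjusted p under 0.05, Skil (-0.78) and Tgfbr1 (-0.47) were lower with miR-125b and Smad7 (0.69) higher, against 14.5% of genes. These 3 and Smad6, at -1.40 (SE 0.64, edgeR adjusted p = 0.351), did not overlap between the groups, against 29.5% of genes. Skil was called by DESeq2 (adjusted p = 0.0434), which called 729 genes in all. It was also called by edgeR without a filter on low counts (adjusted p = 0.0430). The comparisons of shArid3a and miR-125b with sh-ctrl share the sh-ctrl libraries, so the likeness of their values is not counted as a result. Smad3 stood at 26.1 and 24.5 CPM on average, Skil at 24.2 and 14.1, and Smad7 at 4.46 and 7.22.

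The effect in the libraries labelled Arid3a was also tested against the hairpin and microRNA effects, each taken within its own table. Differences exceeded the spread for 5 members against shArid3a, Tgfbr1, Smad3, Smad7, Ski and Skil, all higher, where 9.1% of 14884 genes were called higher. Against miR-125b, 5 members differed, Tgfbr1, Smad3, Smad4, Smad6 and Skil, all higher, where 15.8% of genes were. The Skil difference was 0.96 (SE 0.25, edgeR adjusted p = 0.0221) against shArid3a and 1.74 (SE 0.23, edgeR adjusted p = 0.000887) against miR-125b. Median differences were 0.76 and 0.74 against 0.09 over all genes tested in both. Without shArid3a replicate 3, no member passed the first test, and 53 genes did in all. Doxycycline time differs between the effects, so it and the transgenes cannot be told apart.

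Ratios of related genes within a library do not depend on scaling. Smad2 to Smad3 was 1.27 log2 units higher than in sh-ctrl in both shArid3a and miR-125b. Ski to Skil was 1.104 higher in miR-125b than in sh-ctrl and 1.21 higher than in shArid3a, and it differed by -0.11 between shArid3a and sh-ctrl, where the groups overlapped. Smad6 to Smad7 differed from sh-ctrl by 0.91 in shArid3a and by -1.49 in miR-125b, so that miR-125b and shArid3a differed by -2.40. Tgfbr1 to Tgfbr2 was lower in miR-125b than in sh-ctrl, with a difference of -0.95.

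None of these passed a test. Over 16 two-sided exact permutation tests, p = 0.1 was the smallest value that 3 against 3 or 3 against 2 libraries can give, and every ratio named with no overlap had it (adjusted p = 0.178). In Arid3a against LUC, Smad2 to Smad3 differed by -0.28 without overlap (exact p = 0.1) and the other 3 ratios overlapped.

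**Figure D3:**
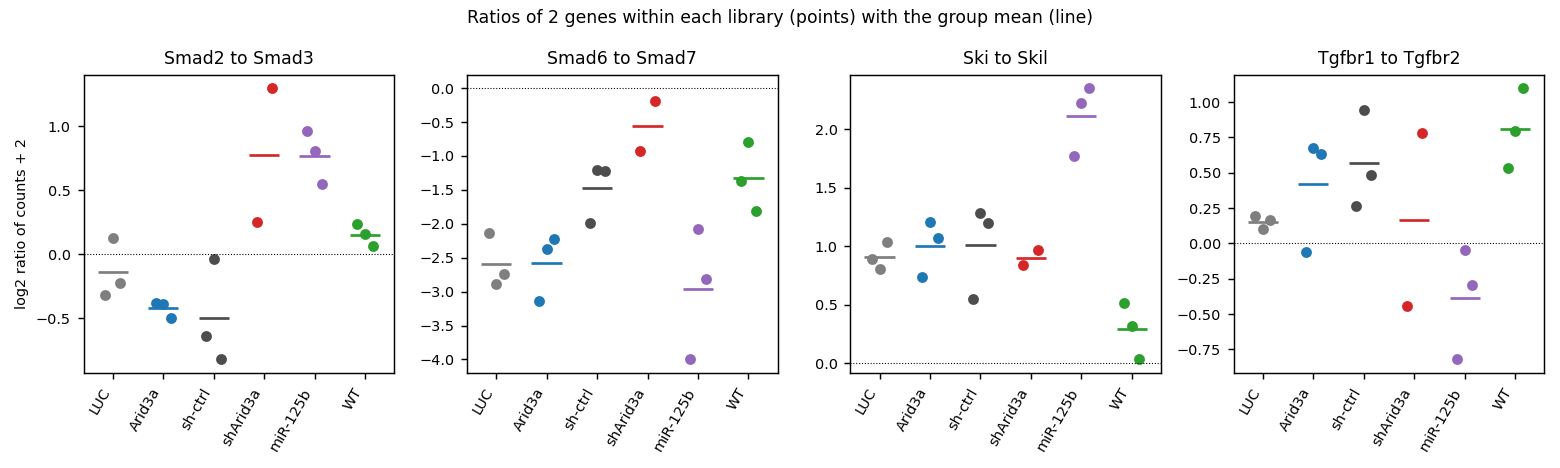
Log2 ratio of 2 genes within each library (y axis, counts plus a prior of 2, not per length) in the 6 groups (x axis), with points for libraries and a line for the group mean. Ski to Skil lies between 1.77 and 2.35 in miR-125b, above every other library.

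The Gata1s controls and WT were set side by side with no test, because genotype, second transgene, doxycycline and table change together. In WT, Tgfb1 was below both controls, with LUC 2.05-fold and sh-ctrl 2.58-fold higher than WT. Tgfbr1 had 72.9, 97.1 and 115 CPM in WT, 2.49-fold the LUC and 2.48-fold the sh-ctrl mean, and Tgfbr2 had 50.5, 55.9 and 53.7, 1.55-fold and 2.05-fold. Skil was at 47.8, 62.8 and 80.7 CPM, 1.65-fold both means, Smad6 at 5.70, 6.52 and 5.55, and Smad4 at 45.3, 48.3 and 44.1. These 6 of 10 members lay beyond both controls on the same side, against 48% of genes, so the share is near the background. Smad7 (14.9, 11.4 and 19.8 CPM) and Ski (68.2, 78.4 and 82.5) overlapped LUC.

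WT also held other blood cells. Granulocyte and monocyte markers were at a summed 11683 to 16187 CPM in WT and, LUC replicate 3 included, 5.25 to 166 in all other libraries, with all 10 markers detected in WT. Mast cell and basophil markers were at 1027 to 1229 CPM and macrophage markers at 135 to 152, against at most 8.28 for macrophage markers elsewhere. The cell mixture and the genotype cannot be told apart in these values.

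Other genes of the pathway were counted from 5 lists. With miR-125b, 15 of the 57 list genes tested were called (26.3%), near the 24.4% of all genes tested. By list, TGF-beta target genes had 5 of 17 tested called lower and 0 higher, with a median of -0.56 against -0.03 over all genes, of which 12.2% were called lower. They included Klf10, an early TGF-beta response gene, at 10.4 ± 0.870 CPM against 22.1 ± 4.02 in sh-ctrl (log2 change -1.10, edgeR adjusted p = 0.00778). Bhlhe40 fell by 1.22 (edgeR adjusted p = 0.0150) and Jun fell by 1.70 (edgeR adjusted p = 0.0292), both transcription factors that answer many signals. Of 22 regulators of SMAD signalling, 6 fell and 1 rose, where 24.4% of all genes were called. The deubiquitinase Usp9x fell by 1.01 and the acetyltransferase Ep300 fell by 0.94 (edgeR adjusted p = 0.0138 and 0.00872). Fkbp1a, whose product binds the type I receptor and keeps it inactive, rose by 0.96 (SE 0.16, edgeR adjusted p = 0.00621), from 179 ± 33.7 CPM in sh-ctrl to 354 ± 18.3.

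Among 10 tested genes for ligands and their release, 2 fell with miR-125b and 0 rose, no larger a share than the 24.4% of all genes. Thbs1, which can activate latent TGF-beta, was at 54.9 ± 10.6 CPM in sh-ctrl and 11.5 ± 8.21 in miR-125b (-2.27, edgeR adjusted p = 0.0208). Of 7 other receptors of the superfamily, 1 rose and 0 fell, also below that share. Smad5, the only one of 3 other SMADs tested there, was at 38.3 ± 5.01 CPM in miR-125b and 20.6 ± 1.08 in shArid3a, a difference of 0.89 (edgeR adjusted p = 0.0321). In sh-ctrl Smad5 was at 36.9 ± 0.466 CPM. Its change from sh-ctrl was 0.03 with miR-125b (edgeR adjusted p = 0.882) and -0.86 with shArid3a (edgeR adjusted p = 0.0989), neither called. Ltbp1, which anchors latent TGF-beta in the matrix, also differed between miR-125b and shArid3a, by 2.27 (edgeR adjusted p = 0.0383). It was at 12.9 ± 5.51 CPM in miR-125b, 2.67 ± 0.125 in shArid3a and 8.42 ± 2.84 in sh-ctrl. Neither change of Ltbp1 from sh-ctrl was called. With shArid3a against sh-ctrl and in the libraries labelled Arid3a against LUC, 0 genes of the 5 lists were called by edgeR. At an unadjusted p under 0.05, 2 list genes were higher and 15 lower with shArid3a, which is 29.8% of 57 tested against 25.8% of all genes. In the libraries labelled Arid3a 14 were higher and 2 lower, 29.6% of 54 tested against 21.4% of all genes.

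**Figure D4:**
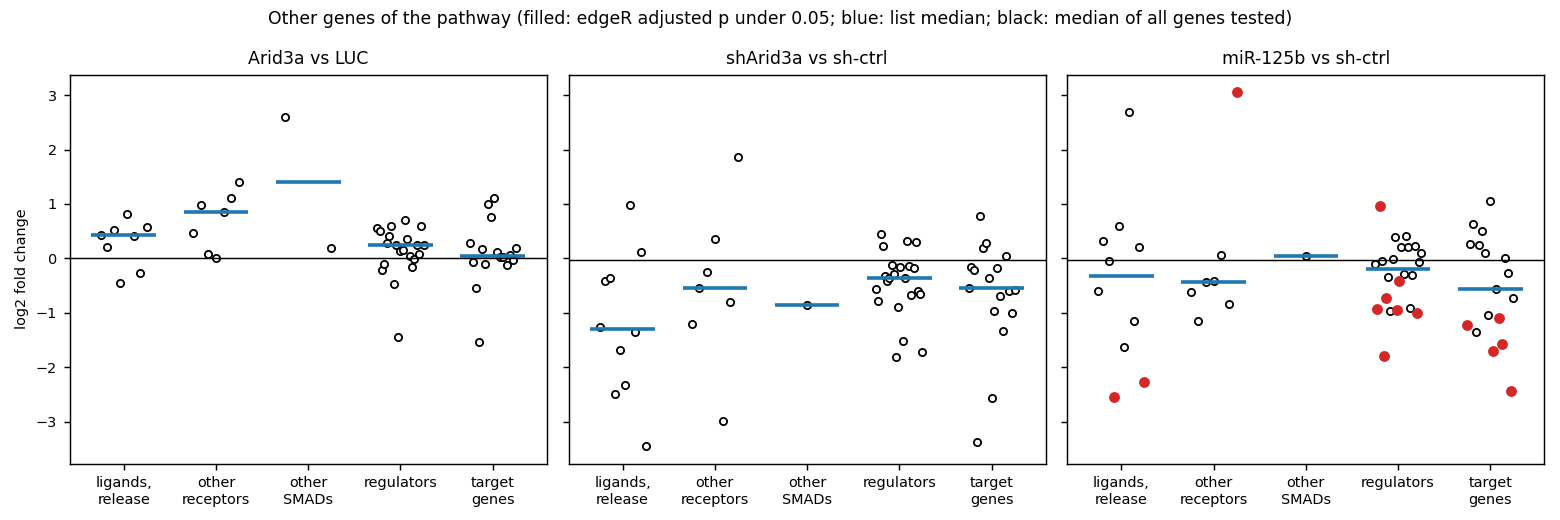
Log2 fold change (y axis) of the tested genes of 5 pathway lists (x axis) in 3 comparisons, with open points for genes not called, filled points for edgeR adjusted p under 0.05, blue lines for list medians and a black line for the median of all genes tested. Filled points appear in the miR-125b panel alone among these 3 comparisons.

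The genes whose levels followed Skil most closely across the 8 libraries of the second table were Vps37b (Pearson r = 0.995), Brpf1 (0.991) and Trak2 (0.985), of 8332 genes compared. This is a description, since the 8 libraries share 3 group means, and 306 genes had an r above 0.9. Like Skil, each had its highest mean in sh-ctrl and its lowest in miR-125b, for example 43.9, 33.9 and 24.1 CPM for Vps37b in sh-ctrl, shArid3a and miR-125b.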

How the data were processed

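Per the labels, total RNA came from a Quick-RNA Miniprep and was sequenced by Illumina methods. Per the submitters' processing notes, fastp, HISAT2 2.0.5, featureCounts and mm10 were used. The authors deposited raw counts per gene with no normalization. Tables were joined by Ensembl identifier over 46880 common genes. Gene lengths, used for CPM per kilobase, are those deposited with the WT counts. Positions came from GENCODE M21; 8 of 10 members have the same coordinates in the WT table.

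Counts were tested with edgeR 4.0.16 (R 4.3.3): TMM, filterByExpr, glmQLFit and glmQLFTest with 1 term per group, and Benjamini-Hochberg adjustment over all genes tested; an adjusted p under 0.05 was called. The 3 groups of the second table were fitted together. SEs come from the F statistics. Log values used a prior count of 2. The fits were tested on simulated data. Alternatives were other size factors, filters, DESeq2 1.42.0, a robust fit, a replicate block, ribosomal RNA-like genes left out, and each library left out.

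Members and lists were chosen with earlier results of these data known. All members are named; a list gene is named where called, if its average log2 CPM reaches 1 and it is among the 3 smallest p of its list. The 3 genes most like the member with the smallest p with miR-125b are also named. Deviations from group means correlated between same-numbered miR-125b and sh-ctrl libraries at 0.427, 0.151 and 0.294. Differently numbered ones ran from -0.364 to 0.205, the highest for miR-125b replicate 2 with sh-ctrl replicate 3. Same-numbered shArid3a and sh-ctrl libraries were at 0.431 (replicate 1) and 0.161 (replicate 3), and shArid3a replicate 3 was at 0.364 with sh-ctrl replicate 2. With only 2 shArid3a libraries, their deviations mirror each other, so these values are not separate evidence. Same-numbered shArid3a and miR-125b libraries were at 0.237 and 0.2. Every same-numbered value in the second table was positive, and so were some of the differently numbered ones. Whether these numbers mark pairs is therefore not settled, and the main fits did not pair libraries. In Arid3a and LUC the same-numbered values were 0.158, 0.365 and 0.0084, and differently numbered ones ran from -0.345 to 0.2. Whether those libraries are pairs is not settled either.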

Additional observations from a re-analysis of the deposited data

Results flagged for a closer look

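There were 10 differences between effects that passed edgeR's quasi-likelihood test with Benjamini-Hochberg adjustment, each the log2 change in the libraries labelled Arid3a against LUC minus a log2 change against sh-ctrl, with 2 or 3 libraries a group. Minus the shArid3a change, the difference was 0.84 for Tgfbr1 (SE 0.25), 1.20 for Smad3 (SE 0.29), 1.46 for Smad7 (SE 0.32), 1.19 for Ski (SE 0.29) and 0.96 for Skil (SE 0.25). Adjusted p-values for these 5 ran from 0.0144 for Smad7 to 0.0375 for Tgfbr1, where 9.1% of 14884 genes were called higher. Tgfbr1 was called in 9 of 19 alternative fits, and Smad3, Smad7, Ski and Skil in 17 or 18 of 19. Minus the miR-125b change, it was 1.31 for Tgfbr1 (SE 0.24), 1.29 for Smad3 (SE 0.27), 0.43 for Smad4 (SE 0.15), 2.07 for Smad6 (SE 0.74) and 1.74 for Skil (SE 0.23). Adjusted p-values here ran from 0.000887 for Skil to 0.0488 for Smad6, where 15.8% of genes were called higher. Smad4 was called in 7 of 20 alternative fits and Smad6 in 10 of 19, against 20 of 20 for Tgfbr1, Smad3 and Skil. Neither set is independent of the other, since both use the LUC, Arid3a and sh-ctrl libraries.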

How the results depend on the processing

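Of the counts of members called, that with miR-125b against sh-ctrl stayed within 1.5 times its main value of 3 under every alternative run. The members behind it changed: Skil and Tgfbr1 were called in 15 of 15 alternatives, Smad3 in 13 of 15 and Smad6 in 8 of 14. In the libraries labelled Arid3a against LUC the count went from 0 to 2 with DESeq2 and ran from 0 to 5 with single libraries left out. With shArid3a it went from 0 to 5 with DESeq2 and to 3 without a filter on low counts, and miR-125b against shArid3a went from 0 to 1 under each of these. The 5 differences from the shArid3a effect ran from 0 to 5 with libraries left out: 0 without shArid3a replicate 3, and 3 without LUC replicate 2 or 3. The 5 differences from the miR-125b effect ran from 3 to 6. With the replicate block, 0, 0, 4 and 0 members were called in the 4 comparisons and 4 and 5 in the differences, where Tgfbr1 was lost from the first, and Smad4 was lost from and Ski gained by the second.

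Genes called in all went from 0 to 1342 with DESeq2 and 3198 without Arid3a replicate 1 (Arid3a against LUC), from 12 to 1600 with DESeq2, 2 without sh-ctrl replicate 3 and 0 without ribosomal RNA-like genes (shArid3a), and from 3414 to 734 without sh-ctrl replicate 3 (miR-125b). For miR-125b against shArid3a they went from 189 to 729 with DESeq2 and 12 without shArid3a replicate 1, and for the difference from shArid3a from 2670 to 53 without shArid3a replicate 3 and 1187 with the block.

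Values that changed sign were uncalled. For Tgfb1 these were -0.127 (shArid3a), -0.181 (miR-125b), 0.0403 and 0.0934 (the differences) by library totals alone, and -0.0141 (miR-125b) with 10 counts in every library. With libraries left out, Tgfb1 ran from -0.0779 to 0.165 (shArid3a), -0.121 to 0.0772 (miR-125b) and -0.154 to 0.0587 (miR-125b against shArid3a). Tgfbr2 then ran from -0.0422 to 0.0338 (Arid3a), -0.654 to 0.373 (shArid3a), -0.171 to 0.0557 (miR-125b), -0.428 to 0.598 (miR-125b against shArid3a), and -0.352 to 0.662 and -0.0521 to 0.158 (the differences). In miR-125b against shArid3a, Smad3 ran from -0.494 to 0.457, Smad2 from -0.0773 to 0.0253 and Smad4 from -0.0289 to 0.0232. There Tgfbr2 was also 0.00953 with RLE size factors, 0.00355 without a filter, 0.00133 with 10 counts, 0.00955 with DESeq2, 0.00681 without ribosomal RNA-like genes and 0.162 with the replicate block. Smad4 was 0.00370, 0.00360 and 0.00246 with RLE, with DESeq2 and without those genes, and Smad3 was 0.0217 with the replicate block. Smad6 with shArid3a was 0.0159 with the replicate block. By library totals alone, the median of all genes moved to -0.22 in both comparisons with sh-ctrl and to 0.31 in the differences. Smad6 levels of 0.286 to 6.52 CPM limit what depth can resolve. The cause of these changes was not tested.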
